A study of Mus musculus with 24 samples.

Results

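Inguinal white adipose tissue of mice lacking LPCAT3 was compared between an omega-3 and an omega-6 high-fat diet, across all expressed genes. The comparison takes 8 of the 24 libraries of the study: 4 of knockout mice on the omega-3 diet (KO n3) and 4 of knockout mice on the omega-6 diet (KO n6), chosen by their genotype and diet labels. The mice were males aged 18 to 22 weeks, every diet supplied 60% of calories as fat, and the genotype is written KO in the sample labels and AdL3KO in the study's design. The labels give neither the promoter nor the construct behind the deletion, and so not the cell type in which it acts. The other 16 libraries came from wild-type mice (WT) on the same 2 diets and from both genotypes on a diet rich in saturated fat (SFA), again 4 a group. The same diet comparison in WT, which shares no library with the one in KO, serves to show where the knockout tissue differs.

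LPCAT3 is a lysophospholipid acyltransferase of the endoplasmic reticulum: it puts polyunsaturated fatty acids, such as linoleic and arachidonic acid, back onto lysophospholipids and so sets how unsaturated the membranes are. Omega-6 and omega-3 fatty acids are both essential polyunsaturated fats, and both enter membrane phospholipids, feed the eicosanoid pathways and, in liver, are known to lower the activity of the sterol regulatory element-binding proteins (SREBPs), the transcription factors that switch on fatty acid and cholesterol synthesis. In white fat the same SREBP targets make fatty acids for storage, while mitochondrial genes burn them.

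Lpcat3 itself (mm10, chromosome 6, 124663027 to 124704418, plus strand) was read first. In CPM, counts scaled to library size, it stood at 50.05, 47.66, 49.07 and 49.2 in the 4 KO n6 libraries and at 58.93, 53.7, 61.33 and 58.98 in the 4 KO n3 libraries. The groups did not overlap, and Lpcat3 rose on n3 by 0.25 on the log2 scale (standard error, SE, 0.062, adjusted p = 0.00645, edgeR). Transcript of the targeted gene thus remained in every KO library. In WT the values were 69.94, 69.35, 72.91 and 66.02 on n6 and 113.7, 113.3, 119 and 111.8 on n3, a rise of 0.72 (SE 0.06, adjusted p = 3.74e-08). The diet difference was smaller in KO than in WT by 0.47 on the log2 scale (KO minus WT -0.47, SE 0.086, adjusted p = 0.00356). The deposited TPM, a unit that also divides by transcript length, were used without further scaling between libraries. In TPM the KO difference was 0.10 (limma, adjusted p = 0.319) where the median gene lay at -0.107. Which exons the deletion removes is not given, so the transcript level does not measure the loss of the enzyme.

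The 8 KO libraries held 43.6 to 48.97 M counts, and 15259 genes had enough counts to be tested. The tissue carried its defining markers: the adipocyte list had a mean level of 8.4 to 8.68 log2 CPM in the 8 libraries, and Adipoq (adiponectin) 1365 to 1858 CPM. Markers of other cells were uneven. KO n6 replicate 1 held skeletal muscle transcripts (list mean 4.22 log2 CPM, against -0.79 to 1.47 in the other 7 libraries) and KO n6 replicate 2 B cell transcripts (2.84, against -0.14 to 0.64), so results are also given without these 2 libraries where they change. KO n3 replicate 4 stood nearer to the KO n6 libraries than its 3 fellows for many genes. The labels do not say that each library came from a separate animal, so p-values measure a spread between libraries. In the main fit it is the spread within the 6 groups of all 24 libraries. The title of the study speaks of mature adipocytes while the protocols describe tissue, so whether cells other than adipocytes were meant to be in the samples is not settled by the labels. In bulk tissue fewer cells of a type and less RNA per cell cannot be told apart.

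In all, 3972 genes differed between KO n3 and KO n6 (26% of those tested, edgeR quasi-likelihood test with Benjamini-Hochberg adjustment under 0.05): 2405 were higher (15.8%) and 1567 lower (10.3%) on n3. The differences were small. The median size among the called genes was 0.232 on the log2 scale, and 98 genes changed at least 2-fold, 11 upward and 87 downward. In 2829 genes (18.5%) the 4 libraries of one diet did not overlap the 4 of the other. When only these 8 libraries were fitted, without the spread of the other 16, 1724 genes were called (878 higher, 846 lower). In TPM the split turned to 333 higher and 3006 lower with 3339 called. The median of all genes lay at -0.107 on that scale against 0.016 in counts. The TPM were not rescaled between libraries, as the counts were by TMM factors (0.9 to 0.982 in KO n3, 0.984 to 1.005 in KO n6). What part this had in the changed split was not tested. Without the 4 libraries rich in muscle or B cell transcripts (KO n6 replicates 1 and 2, WT SFA replicate 3 and KO SFA replicate 2), 1377 genes were called (820 higher, 557 lower), and 98 when the B cell, muscle and gland marker levels entered the fit as covariates.

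Of the genes named here 107 were called in KO. Of these, 89 kept the call when only the 8 libraries were fitted, 75 without the 4 libraries rich in muscle or B cell transcripts, 76 in TPM, and 23 with the marker covariates. The calls of 15 genes, Acat2, Cyp4b1, Cyp51, Fdps, Gpam, Idi1, Kirrel3, Klf6, Me1, Mvd, Mylip, Pdzk1ip1, Podnl1, Sorl1 and Tlcd2, held under every setting tried. Without the 4 libraries the call was lost, among the genes described below, for Rasd1, Angptl8, Prx, Drp2, Pygm, Srebf1, Fads2, Mboat7, Lpcat4, Lpcat1, Lpgat1, mt-Nd2, Slc2a1, Cpt2, Slc25a20, Txnip, Ppara, Dgat2, G0s2, Npr1, Tnf, Retn, Dio2, Ptgs1, Thbs1, Nkg7, Il2rb, Ctsb, Spp1, Mcm6, Nr1d1 and Wfdc21. Fewer libraries were fitted there, and some log2 differences stayed about as large, such as Rasd1 (0.97 against 1.00 with all libraries), Fads2 (0.30 against 0.27), Dio2 (0.68 against 0.56) and Il2rb (-0.82 against -0.87). Others were smaller, such as Thbs1 (-0.30 against -0.58) and Lpcat4 (-0.25 against -0.41).

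The largest rises were of genes with unlike functions. Pdzk1ip1, a small membrane-bound protein that binds PDZ domains, read 1.975, 1.108, 1.495 and 1.634 CPM in KO n6 and 4.472, 3.466, 3.641 and 4.322 CPM in KO n3. The lowest n3 library lay above the highest n6 library, and the rise was 1.35 (SE 0.223, adjusted p = 0.00097). Podnl1, a leucine-rich proteoglycan of the podocan family, went from 4.441 to 5.515 CPM on n6 to 7.737 to 13.57 CPM on n3 (1.13, SE 0.226, adjusted p = 0.00212). Rasd1, a Ras-related G protein that glucocorticoids induce, went from 50.59 to 86.26 CPM to 98.51 to 189.2 CPM (1.00, SE 0.279, adjusted p = 0.0135). Tlcd2, a membrane protein with a TLC domain that is known to limit the share of polyunsaturated phospholipids in membranes, read 17.67, 19.72, 17.13 and 15.79 CPM on n6 and 38.36, 27.84, 27.88 and 30.41 CPM on n3. Its rise of 0.83 (SE 0.123, adjusted p = 0.000705) exceeded that in WT, where it read 9.94 ± 0.658 and 11.6 ± 0.699 CPM (SD, n = 4): the KO-minus-WT difference was 0.60 (adjusted p = 0.039). Tlcd2 was higher still in KO on SFA, at 73.4 ± 14.4 CPM. Among the other genes with the largest rises were Dipk1b (0.71), Angptl8 (0.63), a lipoprotein lipase inhibitor that insulin induces, and Sorl1 (0.58), a sorting receptor. Angptl8 missed the threshold without KO n6 replicate 2 (0.50, adjusted p = 0.105), without KO n3 replicate 1 (0.52, adjusted p = 0.0994) and without KO n3 replicate 2 (0.64, adjusted p = 0.0614).

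The largest falls included 2 genes of the peripheral nerve sheath. Prx (periaxin), which Schwann cells make, read 14.42, 13.02, 13.55 and 12.42 CPM in KO n6 and 5.924, 5.396, 6.941 and 11.57 CPM in KO n3, and fell by 0.84 on the log2 scale (-0.84, SE 0.198, adjusted p = 0.00539). Its partner Drp2 read 9.408, 8.543, 7.998 and 7.353 CPM in KO n6 and 2.792, 2.814, 4.87 and 7.049 CPM in KO n3 and fell by 0.92 (-0.92, SE 0.252, adjusted p = 0.0116). In both genes the n3 libraries lay below the n6 libraries, with KO n3 replicate 4 the highest of them. Of the whole nerve and Schwann cell list 3 of 14 genes fell and none rose, where 10.3% of all genes fell, and the median was -0.24 against 0.016 over all genes. The count was 2 when only the 8 libraries were fitted, 1 without the 4 libraries rich in muscle or B cell transcripts and 5 without KO n3 replicate 4. The list had a mean level of 2.8 to 2.97 log2 CPM in KO n6 and 2.43 to 2.76 in KO n3. Without the 4 libraries rich in muscle or B cell transcripts Prx stood at -0.80 (adjusted p = 0.0562) and Drp2 at -0.81 (adjusted p = 0.0982), and the Drp2 call was also lost when only the 8 libraries were fitted (adjusted p = 0.0561). Plekhg1, a guanine nucleotide exchange factor, fell from 46.76 to 53.4 CPM to 19.11 to 32.36 CPM (-0.89, SE 0.172, adjusted p = 0.00189), and Kirrel3, an adhesion molecule, from 2.761 to 3.207 CPM to 1.229 to 2.061 CPM (-0.89, SE 0.158, adjusted p = 0.00134). Pygm, muscle glycogen phosphorylase, had the largest fall under the naming rule (-1.21, SE 0.298, adjusted p = 0.00675). It stood at 15.04 CPM in KO n6 replicate 1, the library with muscle transcripts, and at 4.922 to 5.541 CPM in the other KO n6 libraries, and without the 4 libraries rich in muscle or B cell transcripts its fall was 0.63 on the log2 scale (-0.63, adjusted p = 0.114).

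**Figure D1:**
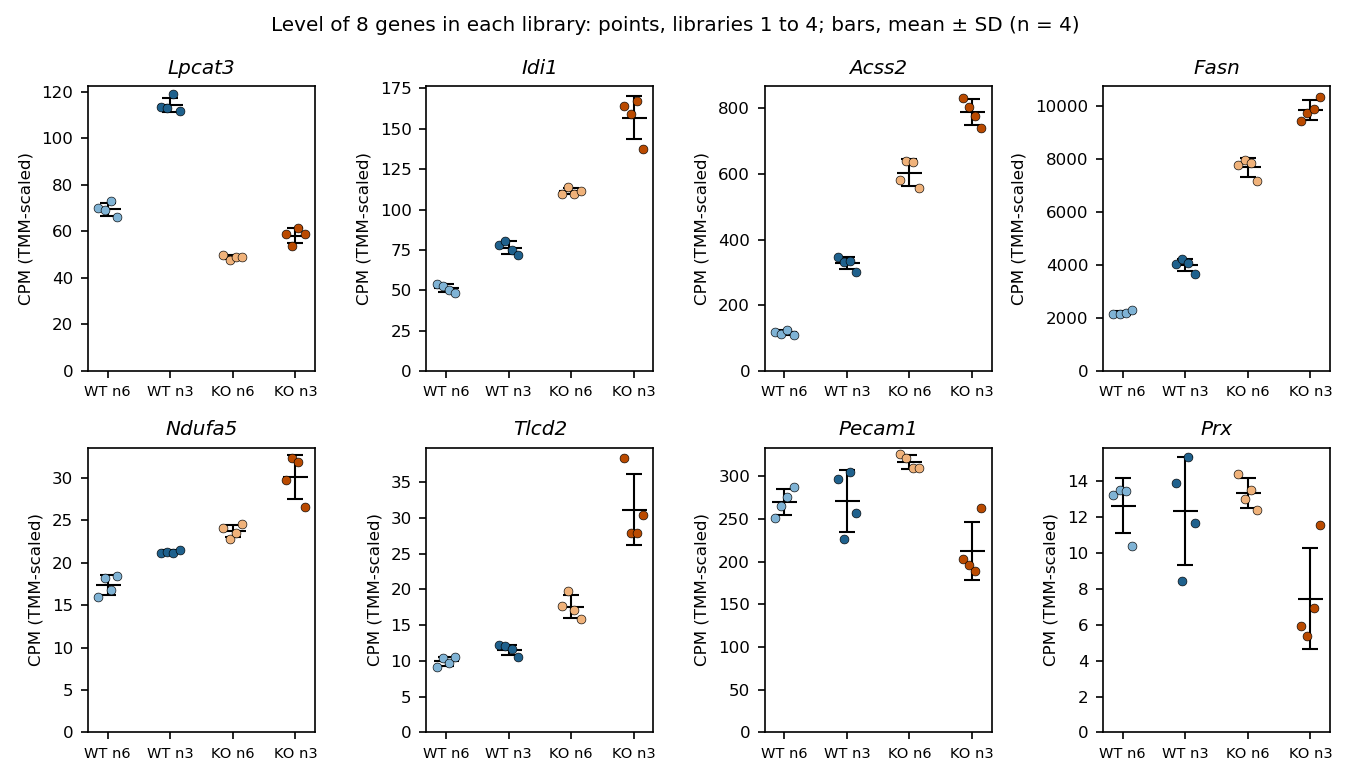
Level of 8 genes in the 16 WT and KO libraries on the n6 and n3 diets, in CPM on linear axes that start at 0. Points are libraries and bars are means ± SD (n = 4). In KO the n3 libraries lie above the n6 libraries for Lpcat3, Idi1, Acss2, Fasn, Ndufa5 and Tlcd2 and below them for Pecam1 and Prx.

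Sterol synthesis genes rose. Of 27 tested genes of cholesterol synthesis and uptake, 20 were higher on n3 and none lower, where 15.8% of all genes were higher. The median was 0.33 on the log2 scale, against 0.016 over all genes, and the mean level of the list was 5.72 to 5.81 log2 CPM in the n6 libraries and 6 to 6.13 in the n3 libraries. The rise ran along the pathway. Idi1, isopentenyl diphosphate isomerase, read 109.9, 113.9, 109.7 and 111.5 CPM on n6 and 164, 159.3, 167.1 and 137.2 CPM on n3, with no overlap (0.50, SE 0.066, adjusted p = 0.000685). Upstream of it, Acat2, which makes acetoacetyl-CoA in the cytosol, rose by 0.48, Hmgcs1 (HMG-CoA synthase) by 0.34 and Mvd (mevalonate decarboxylase) by 0.52. Downstream, Fdps (farnesyl diphosphate synthase) rose by 0.41, Sqle (squalene epoxidase) by 0.38, Cyp51 by 0.40 and Dhcr7, the last reductase before cholesterol, by 0.45. Insig1, which holds SREBPs in the endoplasmic reticulum and is itself an SREBP target, went from 817.9 to 883.1 CPM to 1068 to 1221 CPM (0.39, SE 0.085, adjusted p = 0.00319). Srebf2, which encodes the SREBP of sterol genes, did not pass (0.05, adjusted p = 0.466).

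The promoters of 3 of these genes and of Fasn are shown because the genes moved together. Each is the 250 bases before the RefSeq transcript start, 5′ to 3′ on the gene's strand, in build GRCm38.p6. Capitals mark CCAAT, the box bound by NF-Y, a known partner of SREBPs, on either strand (ATTGG is its reverse), and TCACNCCAC, a spelling of the sterol regulatory element, on either strand. The windows are chr13:8885356-8885605 (Idi1, plus strand), chr13:119690101-119690350 (Hmgcs1, plus strand), chr5:28071162-28071411 (Insig1, plus strand) and chr11:120824548-120824797 (Fasn, minus strand).
Idi1: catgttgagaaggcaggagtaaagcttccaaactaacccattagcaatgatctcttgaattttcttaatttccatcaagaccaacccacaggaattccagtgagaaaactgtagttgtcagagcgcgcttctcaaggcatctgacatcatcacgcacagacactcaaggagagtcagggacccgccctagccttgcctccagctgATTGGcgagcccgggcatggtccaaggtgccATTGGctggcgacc
Hmgcs1: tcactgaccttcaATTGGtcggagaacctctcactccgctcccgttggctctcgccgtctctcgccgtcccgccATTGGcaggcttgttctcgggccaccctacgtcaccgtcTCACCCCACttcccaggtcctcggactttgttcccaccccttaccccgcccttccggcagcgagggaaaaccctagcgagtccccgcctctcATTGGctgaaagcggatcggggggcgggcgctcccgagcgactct
Insig1: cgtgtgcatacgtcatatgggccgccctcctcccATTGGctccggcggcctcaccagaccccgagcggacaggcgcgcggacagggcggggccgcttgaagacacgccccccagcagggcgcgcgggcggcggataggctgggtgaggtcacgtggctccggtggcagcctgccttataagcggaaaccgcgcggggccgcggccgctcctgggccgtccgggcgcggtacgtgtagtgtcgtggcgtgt
Fasn: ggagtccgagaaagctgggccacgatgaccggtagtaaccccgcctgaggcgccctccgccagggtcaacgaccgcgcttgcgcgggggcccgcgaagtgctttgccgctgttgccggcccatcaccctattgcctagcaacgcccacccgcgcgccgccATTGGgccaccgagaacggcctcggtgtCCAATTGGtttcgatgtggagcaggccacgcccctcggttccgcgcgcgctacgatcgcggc
Among the 4 windows TCACNCCAC occurs once, in Hmgcs1, and CCAAT occurs 2 times in Idi1, 3 times in Hmgcs1, 1 time in Insig1 and 3 times in Fasn, where the palindrome CCAATTGG counts on both strands. For Hmgcs1 alone of the 4, the bases just after the RefSeq start were not found in a GENCODE transcript of the gene. Of the 11504 tested genes with a promoter in the table, 40.2% hold CCAAT and 1.21% hold TCACNCCAC in this window. Of the 19 genes of the cholesterol list in the table, 17 hold CCAAT and 1 holds TCACNCCAC, and of the 21 genes of the fatty acid synthesis list 12 and 2. Both spellings were picked after others had been counted, and a match is a string of letters, not a bound site.

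Fatty acid synthesis rose with it: 16 of 23 tested genes were higher on n3 and none lower, with a median of 0.26. Over all genes 15.8% were higher. Acly, which cuts citrate into acetyl-CoA, rose by 0.38 (SE 0.062, adjusted p = 0.00097), Acaca, the carboxylase that commits acetyl-CoA to fatty acids, by 0.39, and the citrate carrier Slc25a1 by 0.39. Fasn, fatty acid synthase, read 7760, 7944, 7839 and 7176 CPM on n6 and 9415, 9750, 9893 and 10340 CPM on n3 (0.36, SE 0.072, adjusted p = 0.00205). The n3 libraries all lay above the n6 libraries. Of the enzymes that supply NADPH, Me1 (malic enzyme) rose by 0.39, Pgd by 0.31 and G6pdx by 0.26. Elovl6, which elongates palmitate, rose by 0.35 and the desaturase Scd2 by 0.30, while Scd1, the most abundant desaturase transcript, did not pass (67700, 71920, 64990 and 66800 CPM on n6, 78410, 81210, 75920 and 70220 CPM on n3, 0.17, SE 0.077, adjusted p = 0.101). Scd1 took 6.79% of CPM in KO n6 and 7.64% in KO n3. Srebf1, the SREBP of fatty acid genes, rose by 0.27 (SE 0.069, adjusted p = 0.00823). Both lists kept their direction in TPM, where 11 of 26 cholesterol genes and 7 of 22 fatty acid genes were higher and none lower. Without the 4 libraries rich in muscle or B cell transcripts 15 of 27 and 11 of 23 were higher and none lower.

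The same 2 lists rose in WT, and by more. In WT 20 of 27 cholesterol genes and 18 of 23 fatty acid genes were higher on n3, with medians of 0.52 and 0.56, and none were lower (9.82% of all genes were higher there). The difference between the genotypes was itself called for 8 genes of each list, in each case a smaller rise in KO, where 9.1% of all genes were called for this difference. Acss2, which makes acetyl-CoA from acetate, had the smallest p of all. It read 580.7, 640.2, 636.4 and 557.9 CPM in KO n6 and 831.9, 805, 776.4 and 738.6 CPM in KO n3 (0.38, SE 0.079, adjusted p = 0.00227), against 119.2, 113.5, 125.1 and 110.7 CPM in WT n6 and 346.2, 330.4, 334 and 302.3 CPM in WT n3 (1.49, SE 0.081, adjusted p = 6.25e-11). The KO difference was smaller by 1.10 on the log2 scale (KO minus WT -1.10, SE 0.112, adjusted p = 1.84e-05). For Insig1 the diet difference was smaller in KO by 0.93 (KO minus WT -0.93, SE 0.12, adjusted p = 0.000456), for Slc25a1 by 0.73 (-0.73, adjusted p = 0.00104), for Elovl6 by 0.59 (-0.59, adjusted p = 0.00146), for Fasn by 0.51 (-0.51, adjusted p = 0.00567) and for Fdps by 0.36 (-0.36, adjusted p = 0.0184). For Idi1 and Hmgcs1 it was not called (-0.08, SE 0.094, adjusted p = 0.621, and -0.11, adjusted p = 0.446). In each of these genes the KO n6 libraries already stood above all WT libraries on either diet, as the plot of levels by library shows for Idi1, Acss2 and Fasn.

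**Figure D2:**
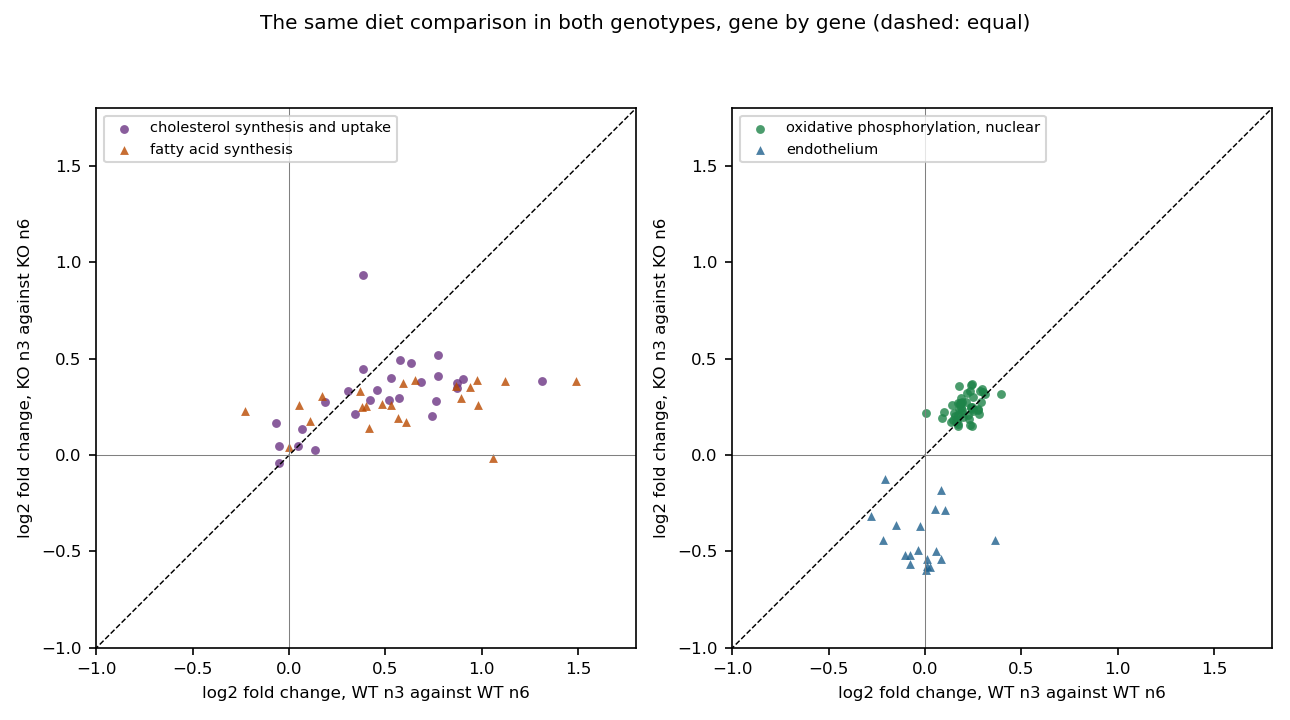
Diet difference (log2 fold change, n3 against n6) of each gene in KO on the vertical axis and in WT on the horizontal axis, with the dashed line where they are equal. Most cholesterol (circles) and fatty acid synthesis genes (triangles) in the left panel lie right of zero and below the line, with medians of 0.33 and 0.26 in KO and 0.52 and 0.56 in WT. In the right panel oxidative phosphorylation genes lie about the line, and endothelial genes lie below zero in KO and on both sides of it in WT, with medians of -0.49 in KO and 0.00 in WT.

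Genes that desaturate and elongate polyunsaturated fats moved less. Of 15 tested, 5 rose and none fell, where 15.8% of all genes rose. The enzymes shared with all long chains rose most: Hsd17b12, the ketoacyl reductase, by 0.38 (SE 0.069, adjusted p = 0.00137) and Tecr, the enoyl reductase, by 0.32 (SE 0.055, adjusted p = 0.00113). Fads2, the delta-6 desaturase at the entry of the pathway, read 17.2, 15.75, 14.86 and 16.59 CPM on n6 and 20.41, 19.12, 16.77 and 21.3 CPM on n3, with overlap (0.27, SE 0.088, adjusted p = 0.0286). Fads1, the delta-5 desaturase (0.13, SE 0.083, adjusted p = 0.265), and Elovl5, the elongase for these chains (0.00, SE 0.047, adjusted p = 0.957), did not pass. The list had 3 rises in WT, with a median of 0.04 against 0.14 in KO.

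Phospholipid remodelling, the pathway of LPCAT3, was mixed in KO: 9 of 25 genes rose and 2 fell, where 15.8% and 10.3% of all genes did. The median of 0.09 turned to -0.04 in TPM. The rises numbered 2 without the 4 libraries rich in muscle or B cell transcripts and 3 to 9 without each KO library in turn. Acsl3, which activates fatty acids for phospholipids and lipid droplets, rose most, from 49.5, 46.18, 49.5 and 51.39 CPM to 69.41, 74.17, 64.79 and 79.02 CPM (0.55, SE 0.079, adjusted p = 0.000685). Of the acyltransferases related to LPCAT3, Mboat7, which puts arachidonate on phosphatidylinositol, rose by 0.13 in counts (adjusted p = 0.0382) and stood at -0.02 in TPM. Lpcat4 read 3.036 to 4.396 CPM on n6 and 2.526 to 3.724 CPM on n3 and fell by 0.41 (-0.41, SE 0.125, adjusted p = 0.0212), and Lpcat1 fell by 0.21 (-0.21, adjusted p = 0.0247). Acsl4, the ligase that prefers arachidonate, did not pass (0.09, SE 0.06, adjusted p = 0.266). Lpgat1, which makes lysophosphatidylglycerol into phosphatidylglycerol, rose by 0.19 in KO and differed in WT by -0.37. The KO-minus-WT difference for Lpgat1 was 0.56 (adjusted p = 0.00159).

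Genes of the respiratory chain rose as a block. All 49 tested nuclear genes of oxidative phosphorylation were higher on n3 (100% of the list, where 15.8% of all genes were), by 0.15 to 0.37 on the log2 scale with a median of 0.24. Ndufa5, a subunit of complex I, read 24.12, 22.81, 23.52 and 24.57 CPM on n6 and 29.71, 32.35, 31.9 and 26.62 CPM on n3 (0.34, SE 0.058, adjusted p = 0.0011). Uqcrq of complex III rose by 0.37 and Cox7b of complex IV by 0.32. The 3 n3 libraries other than replicate 4 had list means of 7.03 to 7.15 log2 CPM, replicate 4 had 6.86, and the n6 libraries had 6.78 to 6.81. In WT 38 of the 49 rose, with a median of 0.20, and no gene of the list was called for the difference between genotypes, which is not evidence that the responses were equal. Without KO n3 replicate 3 the count was 35, without the 4 libraries rich in muscle or B cell transcripts 28, in TPM 18 of 48 and none lower. These are short transcripts, and the short transcripts as a whole were higher on n3 in KO, as described below. With that trend removed 33 of 48 rose, with a median of 0.15.

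**Figure D3:**
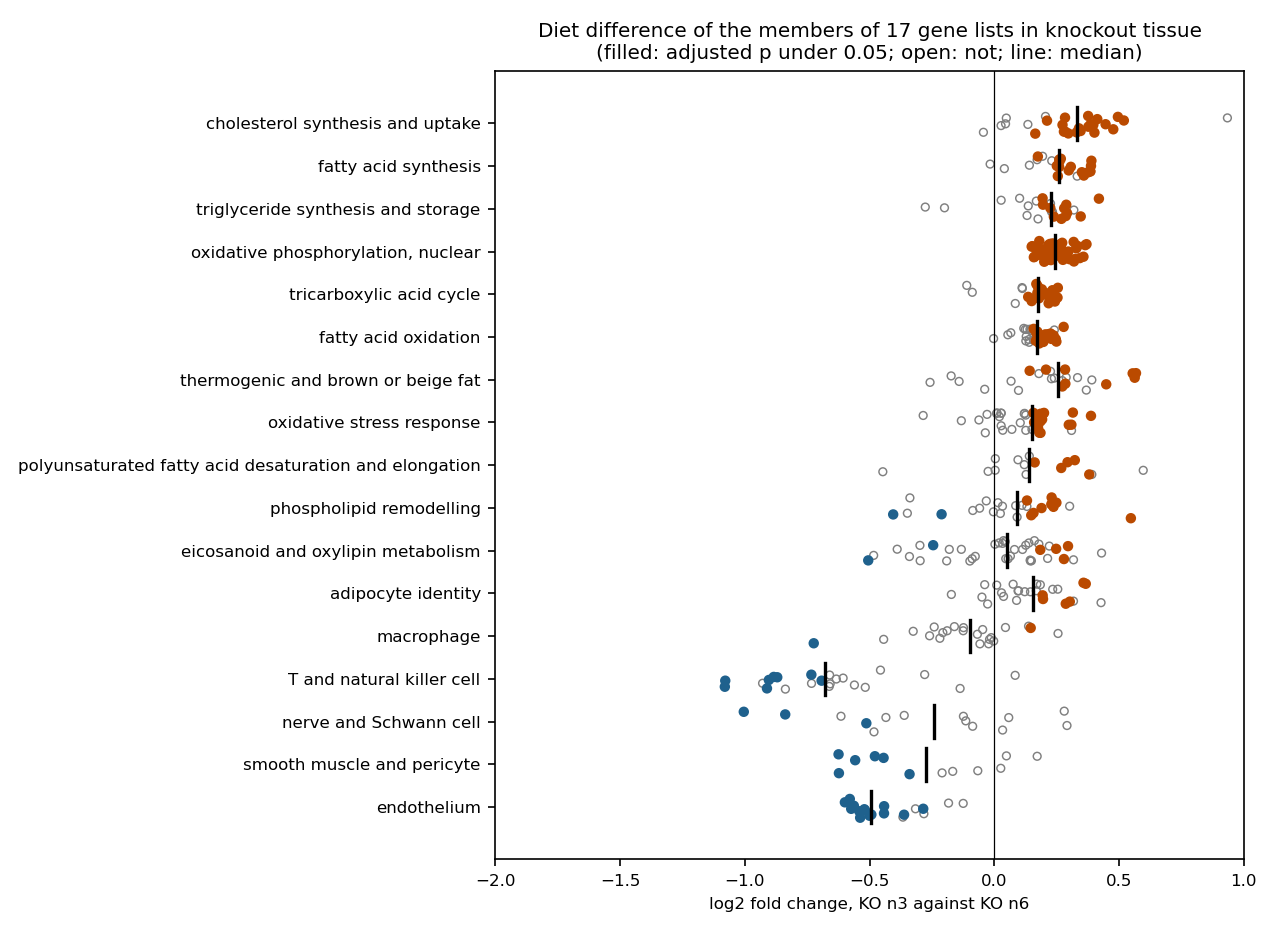
Log2 fold change of KO n3 against KO n6 for each member of 17 gene lists, in counts. Filled points passed the test, open points did not, and black lines are medians. Lipid synthesis and mitochondrial lists lie right of zero and the endothelial, pericyte, nerve and lymphocyte lists left of it. In TPM, where the median gene lies at -0.107, the medians of phospholipid remodelling (-0.04), eicosanoid metabolism (-0.08) and adipocyte identity (-0.01) turn negative.

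Of the 13 tested genes that the mitochondrial genome encodes, 7 rose in KO, with a median of 0.23, and 10 in WT, with a median of 0.56. Over all genes 15.8% rose and 10.3% fell in KO, and 9.82% rose in WT. mt-Nd2, a subunit of complex I, read 7013, 6844, 7040 and 7472 CPM on n6 and 8274, 8438, 8952 and 7537 CPM on n3 (0.23, SE 0.068, adjusted p = 0.0187), and its difference was smaller in KO than in WT by 0.49 on the log2 scale (-0.49, adjusted p = 0.00497). No gene of this list was called without the 4 libraries rich in muscle or B cell transcripts (median 0.23), without KO n3 replicate 3, in TPM, or with the trend with transcript length removed, and 3 or 4 were called without KO n6 replicates 1, 2 or 3 or KO n3 replicates 1 or 2. The citric acid cycle had 19 of 24 genes higher and none lower, with a median of 0.18. Cs, citrate synthase, rose from 719 to 773.3 CPM to 833.3 to 951.8 CPM (0.25, SE 0.053, adjusted p = 0.00235), Idh1 by 0.24 and Pdhb of pyruvate dehydrogenase by 0.25. The count was 7 without the libraries high in those markers, 9 without KO n3 replicate 3 and 12 without KO n3 replicate 2 or KO n6 replicate 4. In glucose uptake and glycolysis 13 of 25 genes rose, among them Pgam1 and Ldha (0.24 and 0.25), and 2 fell, Hk1 (-0.31, adjusted p = 0.00314) and Slc2a1 (-0.17, adjusted p = 0.0267). The rises numbered 7 when only the 8 libraries were fitted and 5 without the 4 libraries rich in muscle or B cell transcripts.

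Fatty acid oxidation, which omega-3 fats are known to raise through PPARα in liver, rose in part. Of 33 tested genes 17 rose and none fell, with a median of 0.17, where 15.8% of all genes rose. Crat, carnitine acetyltransferase, rose by 0.25 (SE 0.053, adjusted p = 0.00276), Cpt2 by 0.24 and the acylcarnitine carrier Slc25a20 by 0.22. Cpt1a and Cpt1b, which carry fatty acids into mitochondria, did not pass (0.05, adjusted p = 0.465, and 0.24, SE 0.14, adjusted p = 0.21). The count of 17 was 3 when only the 8 libraries were fitted, 3 without the 4 libraries rich in muscle or B cell transcripts, 11 without KO n6 replicate 1 or KO n3 replicate 2, 7 without KO n3 replicate 3 and 1 in TPM, where 1 gene fell.

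Of 33 other PPAR targets 5 rose and 2 fell, Cyp4b1 and Txnip (-0.33). The rises were near the 15.8% over all genes and the falls below the 10.3%. The rises ran from 2 (without KO n3 replicate 2) to 11 (without KO n3 replicate 4). Pex11a, which divides peroxisomes, rose by 0.32 (SE 0.053, adjusted p = 0.00097) and Plin2, which coats lipid droplets, by 0.29. Pdk4 (-0.11, SE 0.148, adjusted p = 0.616), Angptl4 (-0.09, adjusted p = 0.407) and Cd36 (-0.03, adjusted p = 0.671), all known targets, did not pass. Cyp4b1, a fatty acid hydroxylase of the cytochrome P450 family, read 125.2, 119.8, 117.7 and 110.4 CPM on n6 and 73.07, 74.5, 88.2 and 97.09 CPM on n3 and fell by 0.51 (-0.51, SE 0.085, adjusted p = 0.00115). In WT it rose by 0.28 (SE 0.085, adjusted p = 0.0238), and the difference between genotypes was -0.79 (SE 0.12, adjusted p = 0.00104). Ppara itself rose, from 6.857 to 10.04 CPM to 10.95 to 13.5 CPM (0.57, SE 0.118, adjusted p = 0.00248), and it missed the threshold without the 4 libraries rich in muscle or B cell transcripts (0.38, adjusted p = 0.0725).

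Storage genes rose with synthesis. In triglyceride synthesis and storage 11 of 23 genes were higher and none lower, with a median of 0.23, where 15.8% of all genes were higher. The count was 7 of 22 when only the 8 libraries were fitted, and 6 without the 4 libraries rich in muscle or B cell transcripts. Agpat2, which acylates lysophosphatidic acid, read 903.2, 889.6, 996.9 and 1014 CPM on n6 and 1241, 1383, 1297 and 1166 CPM on n3 (0.42, SE 0.075, adjusted p = 0.00137). Gpam, the first acyltransferase of the pathway, rose by 0.29, Dgat1 by 0.28 and Dgat2 by 0.24 (SE 0.059, adjusted p = 0.00645). Dgat2 stood at -0.02 in WT, and the difference between genotypes missed the threshold (0.26, adjusted p = 0.0574). For Agpat2 the rise in WT was larger (1.07, KO minus WT -0.65, adjusted p = 0.00147).

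Of 20 lipolysis genes 5 rose and 1 fell, where 15.8% of all genes rose and 10.3% fell. The rises numbered 3 when only the 8 libraries were fitted, 2 without the 4 libraries rich in muscle or B cell transcripts, 3 without KO n3 replicate 3 and 10 without KO n3 replicate 4. The lipases Pnpla2 (ATGL; 0.15, SE 0.09, adjusted p = 0.228) and Lipe (HSL; 0.19, SE 0.072, adjusted p = 0.0527) did not pass, while Abhd5, the coactivator of ATGL, rose by 0.23 and G0s2, its inhibitor, by 0.39 (adjusted p = 0.0134). Prkaca, the catalytic subunit of protein kinase A, rose by 0.26 (SE 0.051, adjusted p = 0.00187). Npr1, the natriuretic peptide receptor, fell by 0.33 (-0.33, SE 0.085, adjusted p = 0.00816). It differed from WT, where the diet difference was 0.14 (KO minus WT -0.47, adjusted p = 0.0197).

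Among secreted factors 6 of 29 rose and 1 fell (Tnf, -0.63), where 15.8% of all genes rose. Leaving out each KO library in turn gave 4 to 11 rises, the highest without KO n3 replicate 4, and without the 4 libraries rich in muscle or B cell transcripts there were 2. When only the 8 libraries were fitted there were 3. Rbp4, which carries retinol, read 327.4, 348.2, 350.8 and 320.9 CPM on n6 and 451.8, 468.7, 480.6 and 419.2 CPM on n3 (0.43, SE 0.08, adjusted p = 0.00154). Igf1 rose by 0.28 and Retn (resistin) by 0.27. Leptin (Lep) read 2610, 2479, 2883 and 2613 CPM on n6 and 2973, 2862, 3398 and 2518 CPM on n3 and did not pass (0.15, SE 0.076, adjusted p = 0.147), whereas in WT it fell by 0.41 (-0.41, SE 0.076, adjusted p = 0.000596). The genotypes differed for Lep by 0.56 (SE 0.108, adjusted p = 0.0043). Saa3, an acute-phase protein, read 1.767 to 2.867 CPM in KO n6 and 2.003 to 2.837 CPM in KO n3 (0.06, adjusted p = 0.886), and the difference from WT (-1.63) was 1.70 (adjusted p = 0.00556). Adipoq (0.12, SE 0.079, adjusted p = 0.261) and Cfd, adipsin (0.26, SE 0.221, adjusted p = 0.406), did not pass. Cfd read 125.4 to 179.4 CPM on n6 and 131.1 to 198.7 CPM on n3.

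Of the adipocyte identity list 6 of 26 genes rose and none fell, with a median of 0.16, among them Cebpa (0.30, SE 0.062, adjusted p = 0.00213), a transcription factor of fat cell differentiation, and Tmem120a (0.36, SE 0.068, adjusted p = 0.00166). Pparg, the master regulator of adipocytes, did not pass (0.10, adjusted p = 0.314). The share is near the 15.8% over all genes, and the count was 3 when only the 8 libraries were fitted or without the 4 libraries rich in muscle or B cell transcripts, 4 without KO n6 replicate 1 or KO n3 replicate 2 or 3, and 12 without KO n3 replicate 4. In TPM 3 genes of this list were higher and 2 lower. Of thermogenic and beige fat genes 9 of 24 rose and none fell, where 15.8% of all genes rose. The count was 5 when only the 8 libraries were fitted, and 4 without KO n3 replicate 3 or without the 4 libraries rich in muscle or B cell transcripts. Cox8b, a cytochrome oxidase subunit of brown fat, rose from 18.52, 20.71, 15.41 and 16.07 CPM to 24.97, 27.68, 30.54 and 20.68 CPM (0.55, SE 0.163, adjusted p = 0.0173), and Dio2, which activates thyroid hormone, by 0.56 (SE 0.206, adjusted p = 0.0477). Ucp1, the uncoupling protein that defines brown fat, stayed near the limit of detection at 0.3268 to 0.9466 CPM on n6 and 0.6206 to 0.9307 CPM on n3 (0.27, SE 0.512, adjusted p = 0.73). Cidea did not pass in KO (0.23, SE 0.187, adjusted p = 0.387), where its WT rise was 1.57, and the difference was -1.34 (adjusted p = 0.00813).

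Antioxidant genes had unlike counts in the 2 genotypes in the main fit. In KO 16 of 37 oxidative stress genes rose and none fell, with a median of 0.15, where 15.8% of all genes rose. In WT 5 rose and 7 fell, with a median of -0.03, where 9.82% and 8.61% of all genes did. Of this list 9 genes were called as higher in KO for the difference between genotypes and 3 as lower, where 4.48% and 4.62% of all genes were. Over all genes, difference calls went from 1389 to 568 without the 4 libraries rich in muscle or B cell transcripts. With the marker covariates they numbered 10. Gpx4, which reduces lipid hydroperoxides in membranes, read 298.7, 311.5, 305.9 and 314.7 CPM on n6 and 375.3, 377.9, 447.4 and 330.9 CPM on n3 (0.32, SE 0.074, adjusted p = 0.00496), against 0.02 in WT (difference 0.29, adjusted p = 0.0793). Prdx1, a peroxiredoxin, rose by 0.20 and differed from WT by 0.23 (adjusted p = 0.0288). Gclm, a subunit of the enzyme that starts glutathione synthesis, rose by 0.19 (SE 0.041, adjusted p = 0.00346). The 16 rises were 5 when only the 8 libraries were fitted, 5 without the 4 libraries rich in muscle or B cell transcripts, 8 without KO n3 replicate 3 and 2 in TPM, where 5 genes of the list were lower.

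Genes that make and sense eicosanoids, the signalling lipids made from these fats, had few calls: 4 of 38 rose and 2 fell, below the shares over all genes. Ptger3, the prostaglandin E2 receptor that restrains lipolysis in fat cells, read 433.1, 416.9, 448.3 and 415 CPM on n6 and 536.4, 537.4, 507.2 and 498.4 CPM on n3 (0.28, SE 0.061, adjusted p = 0.00325). Its rise in WT was 0.91, and the difference was -0.63 (SE 0.0872, adjusted p = 0.000945). Ptger2, another receptor for prostaglandin E2, read 5.882, 5.726, 7.182 and 6.842 CPM on n6 and 3.927, 4.163, 4.756 and 5.209 CPM on n3 and fell by 0.51 (-0.51, SE 0.121, adjusted p = 0.00547). Ptgs1, cyclooxygenase 1, fell by 0.24 (-0.24, adjusted p = 0.04). Ffar4 (GPR120), a receptor for omega-3 fatty acids, did not pass (13.57, 13.41, 12.05 and 11.56 CPM on n6, 17, 15.91, 17.41 and 12.75 CPM on n3, 0.32, SE 0.135, adjusted p = 0.0842).

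Of 20 LXR targets, the genes switched on by oxysterols, 7 rose and 1 fell (4 rises without KO n3 replicate 2 or when only the 8 libraries were fitted, 3 without the 4 libraries rich in muscle or B cell transcripts, 11 without KO n3 replicate 4), and Lpcat3, Srebf1 and Fasn of the rises belong to this list too. Over all genes 15.8% rose and 10.3% fell. The fall on this list was of Mylip, a ubiquitin ligase. It read 88.02, 97.64, 104.3 and 107.5 CPM on n6 and 61.76, 66.26, 74.84 and 76.16 CPM on n3 (-0.51, SE 0.088, adjusted p = 0.00123). In WT it stood at 0.08, and the difference was -0.59 (adjusted p = 0.00718).

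Endothelial genes fell together in KO. Of 19 tested, 14 fell and none rose (10.3% of all genes fell), with a median of -0.49. Pecam1, an adhesion molecule of all endothelium, read 326.3, 321.6, 309.6 and 309.7 CPM on n6 and 202.9, 195.7, 189.5 and 263.4 CPM on n3 (-0.57, SE 0.109, adjusted p = 0.00183). Tek, the angiopoietin receptor, fell by 0.49 (-0.49, SE 0.09, adjusted p = 0.00154), Cldn5, a tight junction protein, by 0.52 (-0.52, SE 0.101, adjusted p = 0.00198). The summed level of the list was 2256 to 2363 CPM in KO n6, 1469 to 1566 CPM in 3 KO n3 libraries and 2047 CPM in KO n3 replicate 4. In WT 1 gene of the list rose and none fell, with a median of 0.00, and 7 genes were called for the difference between genotypes, all lower in KO. For Pecam1 that difference was -0.58 (SE 0.153, adjusted p = 0.0231), with 251 to 287.9 CPM in WT n6 and 226.6 to 305.1 CPM in WT n3. The count was 14 when only the 8 libraries were fitted, 13 to 17 without each KO library in turn and 16 of 18 in TPM. It was 8 without the 4 libraries rich in muscle or B cell transcripts. With the marker covariates Pecam1 (-0.43, adjusted p = 0.101), Tek (-0.37, adjusted p = 0.0844) and Cldn5 (-0.48, adjusted p = 0.075) did not pass.

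Mural cells of the vessels moved the same way. Of 12 smooth muscle and pericyte genes 6 fell and none rose (10.3% of all genes fell), with a median of -0.27. Rgs5, a pericyte marker, read 456.3, 464.6, 510.5 and 454.4 CPM on n6 and 274.3, 332.4, 244.6 and 430 CPM on n3 (-0.56, SE 0.132, adjusted p = 0.0056), and Myh11, smooth muscle myosin, fell by 0.62 (-0.62, adjusted p = 0.0072). Abcc9, a potassium channel subunit of mural cells, fell by 0.48 (-0.48, adjusted p = 0.00482) and differed from WT by -0.61 (adjusted p = 0.0201). With the marker covariates Rgs5 (-0.45, adjusted p = 0.15), Myh11 (-0.50, adjusted p = 0.168) and Abcc9 (-0.44, adjusted p = 0.118) did not pass. The extracellular matrix list as a whole did not move, with 1 of 43 genes higher (Serpinh1, a collagen chaperone, 0.27) and 3 lower and a median of 0.02: the falls were of Tnc, tenascin C (-0.64, SE 0.121, adjusted p = 0.00187), Timp3 (-0.45, SE 0.088, adjusted p = 0.00191) and Thbs1 (-0.58, adjusted p = 0.0134). These transcripts are mostly long ones. With the trend with transcript length removed 15 of 19 endothelial and 7 of 12 mural genes fell.

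**Figure D4:**
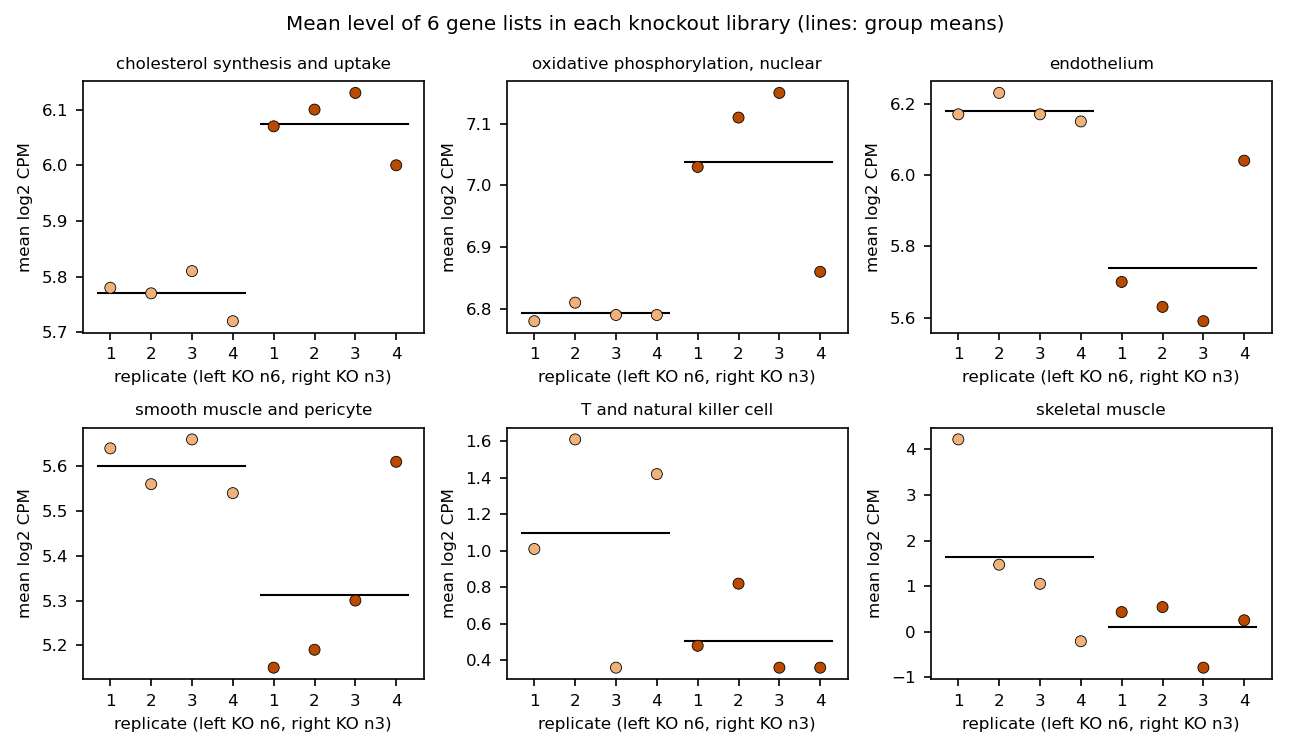
Mean log2 CPM of 6 gene lists in each of the 8 KO libraries, with n6 on the left and n3 on the right of each panel, each panel on its own scale and lines at group means. Cholesterol genes separate the groups (5.72 to 5.81 against 6 to 6.13). KO n3 replicate 4 lies toward the n6 libraries for oxidative phosphorylation and the endothelium, and KO n6 replicate 1 carries the muscle signal.

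Of 22 T and natural killer cell genes 8 fell and none rose (10.3% of all genes fell), with a median of -0.68. The list mean was 1.01, 1.61, 0.36 and 1.42 log2 CPM in KO n6 and 0.48, 0.82, 0.36 and 0.36 in KO n3, so 3 of the 4 n6 libraries lay above all n3 libraries and KO n6 replicate 3 did not. Nkg7, a granule protein of cytotoxic cells, read 2.952, 3.51, 1.337 and 3.309 CPM on n6 and 1.158, 1.93, 1.047 and 1.13 CPM on n3 (-1.08, SE 0.257, adjusted p = 0.00531), and Il2rb, an interleukin 2 receptor chain, fell by 0.87 (-0.87, SE 0.232, adjusted p = 0.0102). KO n6 replicate 3 lay among the n3 libraries for Nkg7. Without the 4 libraries rich in muscle or B cell transcripts no T and natural killer cell gene was called and the median was -0.47, and the calls numbered 3 without KO n6 replicate 2, 17 without KO n6 replicate 3, 4 without KO n6 replicate 4 and 2 without KO n3 replicate 3. Of 14 B cell genes 1 fell, with a median of -1.43, which was -0.10 without those libraries, and 12 of 19 skeletal muscle genes fell, with a median of -2.53, against none and -0.45, and none without KO n6 replicate 1 either. Interferon-response and cytokine genes each had 7 falls (of 31 and 36) and no rise, against none and 1 fall without those libraries. Over the KO libraries left out in turn, interferon falls ran from 0 (without KO n6 replicate 2) to 16 (without KO n6 replicate 3) and cytokine falls from 1 (without KO n3 replicate 3) to 12 (without KO n6 replicate 3). Each list had 2 falls when only the 8 libraries were fitted.

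Macrophage genes did not move as a group: of 22 tested 1 rose (Ctsb, a lysosomal protease, 0.15) and 1 fell, with a median of -0.10, while in WT 1 rose and 9 fell (8.61% of all genes fell there), and no gene of the list was called for the difference. The fall was of Itgax (CD11c), a marker of inflammatory macrophages and dendritic cells, which read 20.43, 14.41, 17.29 and 25.86 CPM on n6 and 11.64, 12.07, 10.49 and 13.1 CPM on n3 (-0.72, SE 0.153, adjusted p = 0.00289) and fell in WT too (-0.96). Spp1 (osteopontin), which lipid-associated macrophages secrete, fell by 0.69 (-0.69, SE 0.18, adjusted p = 0.00833). Of the cell cycle list 1 of 25 genes fell in KO (Mcm6, -0.32) and 16 in WT, where 10.3% and 8.61% of all genes fell. For 2 of these 25 genes the difference between genotypes was called, a share near the 9.1% over all genes. They were Pcna (0.31, adjusted p = 0.00397) and E2f1 (0.41, adjusted p = 0.00919).

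Of 19 clock genes 4 were higher and none lower, a share near the 15.8% of all genes that were higher, with a median of 0.13. The count was 2 without the 4 libraries rich in muscle or B cell transcripts. Dbp, which the clock drives directly, read 28.1, 27.75, 26.1 and 25.84 CPM on n6 and 37.73, 41.56, 43.9 and 45.86 CPM on n3 (0.65, SE 0.164, adjusted p = 0.00789). Bhlhe41, a repressor in the clock, rose by 0.68 (SE 0.135, adjusted p = 0.00201) and Nr1d1 (REV-ERBα) by 0.30. Dbp and Bhlhe41 rose in WT as well (0.95 and 0.80), and no gene of the list was called for the difference. The labels give no times of tissue collection. Immediate early genes had 6 falls of 25 and no rise (10.3% of all genes fell; 4 falls when only the 8 libraries were fitted or without KO n3 replicate 1 or 2, and 9 without KO n3 replicate 4), among them Klf6 (-0.30, adjusted p = 0.00255) and Btg2 (-0.39, adjusted p = 0.00187).

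Short and long transcripts differed in KO. In the shortest quintile of genes by transcript length (111 to 1877 bases) the median log2 fold change was 0.129, with 825 genes higher and 113 lower. In the longest quintile it was -0.058, with 206 higher and 602 lower. In WT the same quintiles had 330 higher and 194 lower, and 232 higher and 302 lower. The median of the shortest minus the longest quintile was -0.1 to -0.046 in the 4 KO n6 libraries, 0.077, 0.123 and 0.2 in KO n3 replicates 1 to 3, and -0.024 in KO n3 replicate 4. With each library's trend with length and GC removed, 3458 genes were called (2142 higher, 1316 lower), and the shortest quintile had 371 higher and 184 lower. The trend's part in the other results was not tested beyond the counts given beside them.

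**Figure D5:**
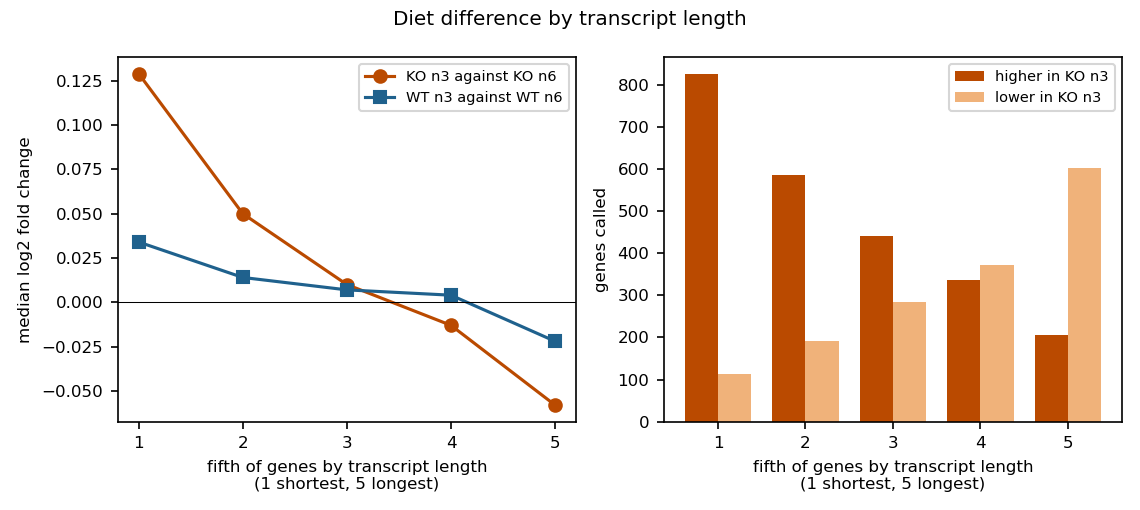
Left, median log2 fold change of n3 against n6 in each quintile of genes by transcript length, in KO (circles) and WT (squares). Right, number of genes called higher and lower in KO n3. The KO median runs from 0.129 in the shortest quintile to -0.058 in the longest, and the balance of calls turns from 825 higher and 113 lower to 206 and 602.

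Across all genes the KO and WT responses overlapped in part. The log2 fold changes of 15259 genes correlated at 0.065 (Pearson, across genes, which are not independent replicates). Of the genes higher in KO, 689 were also higher in WT (28.6% of the KO list and 46% of the WT list). In both genotypes 194 genes were lower (12.4% and 14.8%). Calls in opposite directions were fewer: 55 genes were higher in KO and lower in WT (2.29% of the KO list). Another 37 were lower in KO and higher in WT (2.36%). Over all tested genes 15.8% were higher and 10.3% lower in KO, and 9.82% and 8.61% in WT. For 1389 genes (9.1%) the difference between the 2 responses was called. The log2 fold changes of 1085 of them had opposite signs, whether or not either response was itself called. Another 214 had the same sign and a smaller size in KO, and 90 the same sign and a larger size. Parm1, a membrane mucin, was among the strongest: it rose from 127.2, 124.8, 142.3 and 135.3 CPM to 190.7, 183.1, 177.6 and 189.8 CPM in KO (0.48, SE 0.116, adjusted p = 0.00576) and by 1.70 in WT (difference -1.21, SE 0.169, adjusted p = 0.000988). Pdgfd, a growth factor for mesenchymal cells, read 38.6 to 45.31 CPM on n6 and 35 to 38.38 CPM on n3 in KO (-0.19, SE 0.054, adjusted p = 0.0147), rose in WT from 31.22 to 34.41 CPM to 42.24 to 45.51 CPM (0.42, adjusted p = 8.31e-06), and differed by -0.60 (SE 0.076, adjusted p = 0.000375). Wfdc21, a small secreted protein of the whey acidic protein family, rose in KO by 0.29 (adjusted p = 0.0428) and fell in WT (-0.66), a difference of 0.95 (SE 0.141, adjusted p = 0.00104). The count of 1389 was 568 without the 4 libraries rich in muscle or B cell transcripts and 2693 without KO n3 replicate 4.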

How the data were processed

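Inguinal fat was profiled by poly-A RNA-seq in 24 libraries. The series title names mature adipocytes, but the protocols describe no isolation of them, so the samples were treated as whole tissue. The submitters' processing notes name fastp 0.23.2, Salmon (version not given in the sources used here) and the mm10 build. The authors deposited estimated counts, rounded to whole numbers, and TPM for 35727 genes; 34956 names were matched to an Ensembl gene and position.

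From the counts, edgeR 4.0.16 (R 4.3.3) with TMM scaling, a filter on low counts (filterByExpr, minimum count 10, minimum total 15) and a robust quasi-likelihood fit with 1 coefficient per group over the 24 libraries (18 residual degrees of freedom) tested 15259 genes. P-values were adjusted over all of them (Benjamini-Hochberg, threshold 0.05), and the difference between genotypes was a contrast of the same fit. Log2 fold changes are fitted values, and CPM are scaled by TMM. In TPM, log2(TPM + 1) was tested with limma 3.58.1, without TMM or other scaling between libraries. Such fold changes understate changes of low genes. DESeq2 1.42.0 was a further alternative.

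Genes named are 6 set ones (Lpcat3, Ucp1, Scd1, Cfd, Lep, Adipoq), the 12 largest called rises and falls whose groups do not overlap (mean log2 CPM from 1 upward), the 4 called genes of smallest p in each list with 3 or more calls, the 12 smallest p for the difference between genotypes, and members of core lists; not every gene under the rule is printed. Slc2a1, Pparg, Ctsb, Mcm6, Pcna and E2f1 fall outside it and were chosen after their values were seen. The members and lists were chosen with earlier results of these data known. The offset for transcript length and GC was added after seeing the data, with 99.5% of tested genes having a length. Libraries were called high in markers at a list mean over 2 (B cell) or 4 (skeletal muscle) log2 CPM, which took 4 of 24. Promoters came from a RefSeq table (GRCm38.p6), counting a gene where any of its windows held the motif. Some genes are not reported here.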

Additional observations from a re-analysis of the deposited data

Results flagged for a closer look

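In 11 cases 1 library of a group of 4 lay far from the other 3, by a rule that chance meets in about 1 in 20 groups. The rule was applied to 129 named genes in KO n6 and again in KO n3, so chance alone would give about as many cases. KO n6 replicate 1 was high for Pygm (15.04 CPM, others 4.922 to 5.541) and Serpinh1 (797.3, others 721.6 to 731.7). KO n6 replicate 2 was low for Angptl8 (10.87, others 16.12 to 16.9), and KO n6 replicate 3 high for Cfd (179.4, others 125.4 to 133). KO n3 replicate 1 was low for Txnip (986.3, others 1207 to 1245). KO n3 replicate 2 was low for Mboat7 (27.38, others 30.01 to 30.37) and E2f1 (9.536, others 10.79 to 10.9) and high for Nkg7 (1.93, others 1.047 to 1.158). KO n3 replicate 3 was high for Thbs1 (151.6, others 111.9 to 117.1). KO n3 replicate 4 was low for Cyp51 (127.4, others 145.4 to 147.9) and high for Abcc9 (92.12, others 62.33 to 67.26).

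For 39 named genes the diet difference itself differed between KO and WT (edgeR, adjusted p under 0.05). In lipid synthesis the difference, KO minus WT on the log2 scale, was -1.10 for Acss2, -0.93 for Insig1, -0.73 for Slc25a1, -0.65 for Agpat2, -0.59 for Elovl6 and Scd2, -0.58 for Me1, -0.51 for Fasn, -0.50 for Cyp51, -0.47 for Lpcat3, -0.43 for Scd1, -0.38 for Hsd17b12, -0.37 for Acsl3, -0.36 for Fdps and Tecr and -0.31 for Sqle. Each of these rose less on n3 in KO than in WT, with Scd1 not called in KO. Among other metabolic and adipocyte genes it was -1.34 for Cidea, -1.21 for Parm1, -0.79 for Cyp4b1, -0.63 for Ptger3, -0.60 for Lpcat4 and Pdgfd, -0.59 for Mylip, -0.49 for mt-Nd2 and -0.47 for Npr1. It was positive for Saa3 (1.70), Wfdc21 (0.95), Tlcd2 (0.60), Lep and Lpgat1 (0.56 each), E2f1 (0.41), Pcna (0.31) and Prdx1 (0.23). Among vascular, nerve, matrix and lymphocyte genes it was -1.46 for Nkg7, -0.75 for Tnc, -0.61 for Abcc9, -0.58 for Pecam1, -0.46 for Tek and -0.45 for Timp3.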

How the results depend on the processing

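Of 3972 genes called in KO (2405 higher, 1567 lower, 98 at least 2-fold), fitting only the 8 libraries left 1724 (878, 846, 25). Without the 4 libraries rich in muscle or B cell transcripts there were 1377 (820, 557, 37), and with the B cell, muscle and gland marker levels as covariates 98 (69, 29, 5); the cause was not tested. In log2 TPM, not rescaled between libraries, the split was 333 higher and 3006 lower (9 at least 2-fold). It was 328 and 3050 with a pseudocount of 0.1, and 269 and 2450 with no filter (6 at least 2-fold). Leaving out each library gave 2048 (without KO n3 replicate 3) to 5280 (without KO n3 replicate 4) called, 1281 to 3153 higher and 767 to 2127 lower from the same libraries, and 52 (without KO n3 replicate 3) to 165 (without KO n6 replicate 3) at least 2-fold; without KO n3 replicate 2, 1035 were lower. DESeq2 called 4306, size-factor scaling 3911, and no filter 3182 of 23565. The difference between genotypes, 1389 genes, had 873, 841 and 658 calls in the 3 TPM settings, 10 with covariates, 568 without those 4 libraries, and 730 (without WT n6 replicate 1) to 2693 (without KO n3 replicate 4) over libraries left out. In WT, 2813 were called and 1964 to 3175 with a library left out.

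The named genes that turned direction were Mboat7 (-0.02) and Ctsb (-0.03), in all 3 TPM settings, where the median gene lay at -0.107 with a pseudocount of 1.

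Same-numbered deviations correlated at 0.12, -0.033, 0.044 and 0.083, and different-numbered ones at -0.12 to 0.097. Whether replicate numbers pair the libraries is not settled by these values. With the replicate block, 2104 genes were called in the 8 libraries (947 higher, 28 at least 2-fold) and 3929 over all 24.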

Other observations

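The counts of further gene groups in KO follow, where 15.8% of all genes rose and 10.3% fell. Of 27 insulin and nutrient signalling genes 6 rose and 3 fell, with a median of 0.03. Of 28 endoplasmic reticulum stress genes 2 rose and 1 fell, and of 22 complement genes 1 rose. Among 22 stromal progenitor genes 1 rose and 4 fell, with a median of 0.03. Of 18 lipid-associated macrophage genes 3 rose and 2 fell, and of 18 MHC class II and dendritic cell genes 3 fell, with a median of -0.34. The mast cell, neutrophil and eosinophil list had 1 fall among 15 genes and the gland epithelium list 1 rise among 15.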
